A study of Mus musculus with 7 samples.

Results

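The 72 genes described here encode proteins of the mitochondrial ribosome. They are the genes of a deposited table of exon coverage whose mouse symbol begins with Mrpl or Mrps followed by a digit, out of 5194 genes with a value of at least 1 in either stage. The RefSeq annotation of GRCm38.p6 holds 78 protein-coding genes with such names. The other 6, Mrpl1, Mrpl23, Mrpl47, Mrpl48, Mrps6 and Mrps36, had no listed exon and were not analysed here. The rule used names, and a gene also needed a listed exon, which takes at least 0.8 in both stages.

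The samples came from the fetal liver of mouse embryos at stage E13.5, and all of them, in both stages, carried a Klf1 gene tagged with hemagglutinin. Klf1 encodes EKLF, a transcription factor of red cell precursors, and the tag allows an antibody to pull it down with the DNA it binds. Erythroid progenitors were sorted as Ter119-CD71- and Ter119-CD71+ cells, and erythroblasts as Ter119+CD71+ cells, where Ter119 marks maturing red cells and CD71 is the receptor that takes up iron-loaded transferrin. The 7 libraries were 1 EKLF ChIP-seq and 1 input library for each stage, 1 RNA-seq library of progenitors and 2 of erythroblasts.

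Mitochondria keep a small genome of their own, and the ribosome inside them translates its messages into subunits of the respiratory chain. Its large subunit joins amino acids and its small subunit reads the message. All of its proteins are encoded in the nucleus, made in the cytosol and imported, and many have a bacterial counterpart while others occur only in mitochondria. Red cell precursors need mitochondria to make heme and lose them in the last steps of maturation.

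The table gave 1 coverage value per coding exon in each stage, and 30257 exons were listed, all at or above that minimum. Genes silent in either stage were therefore not analysed here. Exons under the minimum in either stage are likewise missing from a gene's sum. Mrpl3, Mrpl13, Mrps14 and Mrps18c rest on 1 exon with a value near it in 1 stage, so their differences cover only that exon. The coverage values behaved as summed read coverage that was not divided by exon length, so a gene is compared between stages and not with another gene. A gene's value is the sum over its listed exons, and its difference is log2 of erythroblast + 1 over progenitor + 1, which understates the change of low genes. "Rose" and "fell" mean a difference of at least 2-fold on that scale. With 1 column per stage no difference had a replicate check and no test was possible, so the values are the authors' and carry no SD. Fewer cells of a type and less RNA per cell cannot be told apart in such bulk samples. Of 10 erythroid markers 6 were listed, and the markers of other cell types were not, except Gp1ba of megakaryocytes. Coverage of Tfrc, which encodes CD71, rose from 21.3 to 148.2, and that of Klf1 was 73.9 in progenitors and 144.9 in erythroblasts.

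Most mitochondrial ribosomal protein genes differed by less than 2-fold on the log2 scale given above. Of the 72, 12 fell from progenitors to erythroblasts, 4 rose and 56 did neither. Over all 5194 genes, 3715 did neither. The 12 make up 16.7% of the members, where 13.2% of all 5194 genes fell, and the 4 make up 5.56%, where 15.3% of all genes rose. The share that fell is near that of all genes, and the share that rose is lower. The median difference of the members was -0.15, with quartiles at -0.70 and 0.32, and the median of all genes was 0.03. Lower values in erythroblasts were found for 41 members and higher values for 31. The balance depended on how the columns are scaled. When they were put on the ratio of their smallest steps, 1.17, the median of all genes moved to 0.23, that of the members turned positive at 0.04, and 8 members fell while 8 rose, where 9.66% of all genes fell and 20.4% rose. Mrpl43, Mrpl44, Mrps22 and Mrps7 then no longer fell.

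**Figure D1:**
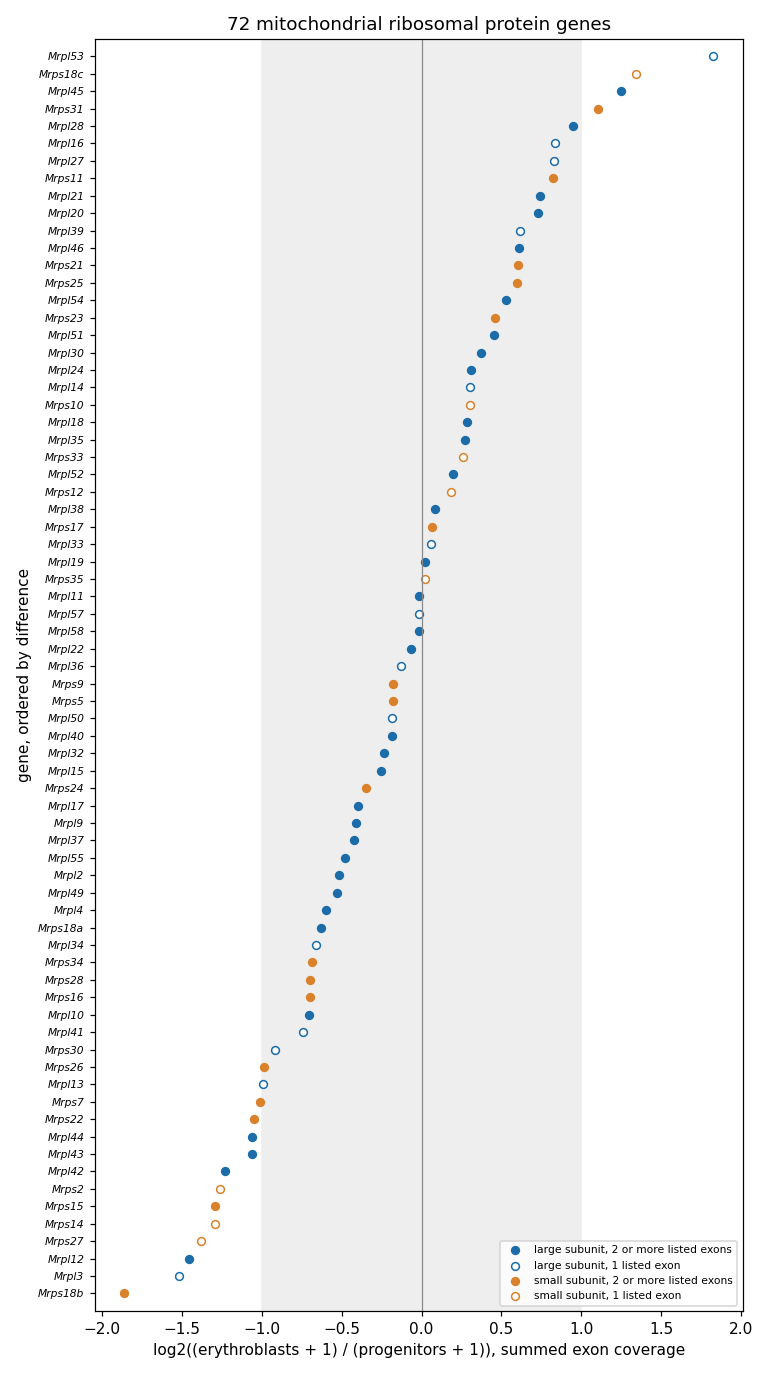
Difference in coverage between erythroblasts and progenitors, log2((erythroblasts + 1) / (progenitors + 1)), for each of the 72 genes in order of the difference. Filled points rest on 2 or more listed exons, open points on 1, and the grey band marks differences under 2-fold, in which 56 genes lie.

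The large subunit had 47 of the members, counting Mrps30 and Mrps18a, whose products sit in it despite their names. Of these, 5 fell and 2 rose, with a median difference of -0.07. That is 10.6% and 4.26% of them, where 13.2% of all genes fell and 15.3% rose. Mrpl12 encodes a protein of the flexible stalk that contacts translation factors. Its coverage fell from 100.2 in progenitors to 35.96 in erythroblasts, a difference of -1.45. All 5 of its listed exons were lower in erythroblasts, 1 of them with 50.1 and 18.7. The stalk is anchored by the products of Mrpl10 and Mrpl11. Mrpl10 had 22.4 and 13.3, and Mrpl11 had 11.1 and 10.9, so of these stalk genes only Mrpl12 was past 2-fold.

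Mrpl42, Mrpl43 and Mrpl44 encode large subunit proteins without a bacterial counterpart, and all 3 fell. Mrpl42 went from 25.1 to 10.2, Mrpl43 from 31.4 to 14.5 and Mrpl44 from 14.1 to 6.23. Every listed exon of the 3 genes was lower in erythroblasts. Mrpl43 and Mrpl44 lay close to the threshold, and neither fell when the median of the exon ratios replaced the sum. Mrpl3 encodes a core protein near the catalytic centre. Its coverage fell from 4.72 to 0.999, on a single listed exon. Just short of the rule were Mrpl13, with 2.99 in progenitors and 1.01 in erythroblasts, and Mrps30, with 13.1 and 6.46.

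The large subunit genes that rose were Mrpl53 and Mrpl45. Mrpl53 went from 1.60 to 8.21, a difference of 1.82, on 1 listed exon. Mrpl45, whose product holds the ribosome at the inner membrane where new proteins are inserted, went from 2.20 to 6.61, and both of its listed exons were higher. Mrpl28 lay just under the rule. It had 30.1 in progenitors and 58.9 in erythroblasts, or 0.95 on the log2 scale, and each of its 5 listed exons was higher. Mrpl20 had 15.2 and 25.9, with all 4 listed exons higher. Mrpl24, whose product lies at the exit of the tunnel for new proteins, had 51.2 and 63.6. Mrpl4, also of the tunnel, had 39.7 and 25.9.

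The small subunit had 25 members, of which 7 fell and 2 rose, with a median difference of -0.18. That is 28% and 8% of them, where 13.2% of all genes fell and 15.3% rose. With a pseudocount of 1, Mrps18b showed the largest fall of all members, from 41.4 in progenitors to 10.7 in erythroblasts, a difference of -1.86. With a pseudocount of 0.1 the fall of Mrpl3, on 1 listed exon, was larger, at -2.13 against -1.94. One of the listed exons of Mrps18b had 37.8 and 9.53, and the other 3.63 and 1.16. Mrps15 fell from 28.6 to 11.1, and its 4 listed exons were alike, with exon log2 ratios between -1.48 and -1.29. Mrps7, which encodes a protein of the head of the subunit, fell from 29.2 to 13.99 with 3 of 4 exons lower. The fourth had 0.923 and 0.992.

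Mrps2 fell from 52.6 to 21.3 on 1 listed exon. Mrps14 fell from 3.997 to 1.04 and Mrps27, which encodes a protein with repeats that bind RNA, from 6.53 to 1.90, also on 1 exon each. Mrps22 is specific to mitochondria and fell from 9.82 to 4.24, with 4 of 4 exons lower. Inherited defects of Mrps22, Mrps7, Mrps2, Mrpl3, Mrpl12 and Mrpl44 in people are known to impair the respiratory chain. Mrps26 had 23.2 and 11.2 with all 4 exons lower, a ratio of 2.07 that the pseudocount brought just under the rule. It fell under 4 of the alternatives: a pseudocount of 0.1 and 3 other scalings. Mrps31 rose from 3.76 to 9.21 with 3 of 3 exons higher. Mrps12, which encodes a protein of the decoding centre, had 10.2 and 11.7.

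The 3 relatives of bacterial S18 had values in different directions. Mrps18b fell, as given above. Mrps18c rose from 1.01 to 4.10, on 1 exon. Mrps18a had 28.5 and 18.1, with 2 of its 5 exons higher and an SD of 0.96 between its exon ratios. Reads shared between such relatives could not be assessed, and the counting of reads with several matches was not stated. Of the 6 annotated pseudogenes with such names, Mrpl27-ps bears the name of a listed gene, so Mrpl27, with 2.63 and 5.44, is uncertain as well.

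By a list of symbols not checked against protein sequences, 42 members were counted as having a bacterial counterpart and 30 as specific to mitochondria. Of the former 7 fell and 1 rose, and of the latter 5 fell and 3 rose. The falls are 16.7% of each group, where 13.2% of all genes fell. The rises are 2.38% and 10%, where 15.3% of all genes rose. Medians were -0.15 and -0.10. Within the small subunit, 5 of the 15 genes with a bacterial counterpart fell, and 2 of the 10 specific to mitochondria. Within the large subunit it was 2 of 27 and 3 of 20, and none of the 27 rose. These falls are 33.3%, 20%, 7.41% and 15%, of few genes each. Whether these shares differ was not tested.

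Exons give a view within each gene, though exons of 1 gene share their library and are not replicates. Falls and rises were called from the sum of these same exons, so their agreement with a call is no separate support. Shares of exons over all genes are not given here. Of the members, 22 rested on 1 listed exon and 50 on 2 or more. Among the 8 genes that fell on 2 or more exons, 26 of 27 exons were lower in erythroblasts. In both genes that rose on 2 or more exons, all 5 exons were higher. Among the other 40 genes, 7 had all exons lower, 7 had all higher and 26 were mixed. The median SD of exon log2 ratios was 0.46 over the 50 members and 0.61 over the 3643 genes with 2 or more exons.

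**Figure D2:**
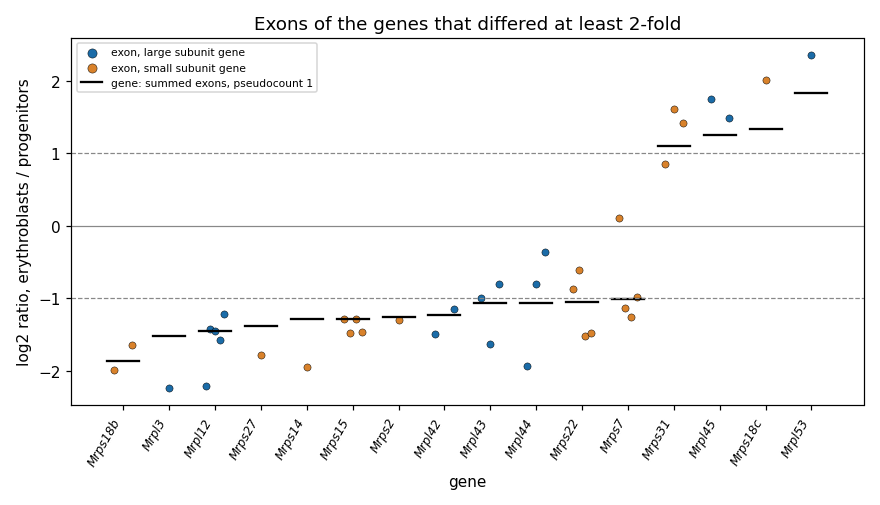
Log2 ratio of erythroblast to progenitor coverage of each listed exon (points, no pseudocount) in the 16 genes past 2-fold, with the gene's own value, computed with a pseudocount of 1, as a black bar. In the genes that fell, 1 exon, of Mrps7, lies above 0.

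Mrpl15 differed from this pattern. Its listed transcript had 28.5 in progenitors and 23.7 in erythroblasts, but 1 exon had 6.78 and 0.821 while the other exons had 4.16 and 2.19, 12.7 and 13.997, and 4.81 and 6.69. The SD of its exon log2 ratios was 1.59. The low exon belongs to 1 of the 2 listed transcripts, and the 3 exons that both share summed to 21.7 and 22.9.

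The members were also split by coverage, after their values were seen. Among the 48 members with at least 10 in the higher stage, 8 fell and 0 rose, 33 were lower in erythroblasts, and the median was -0.30. Among the 3307 genes of the whole table with at least 10, 16% fell and 18.9% rose, and the median was 0.01. The 16.7% of these members that fell is near that share. The 24 less covered members held all 4 that rose and another 4 that fell, and their median was 0.27. Each 4 is 16.7% of them, where 8.96% of the 1887 less covered genes rose and 8.32% fell, with a median of 0.05. The lower share of rises over all members was thus not found among the less covered ones. With a pseudocount of 5 in place of 1, the falls were those of Mrps18b, Mrpl12, Mrps15 and Mrps2, and the rise that of Mrpl53.

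**Figure D3:**
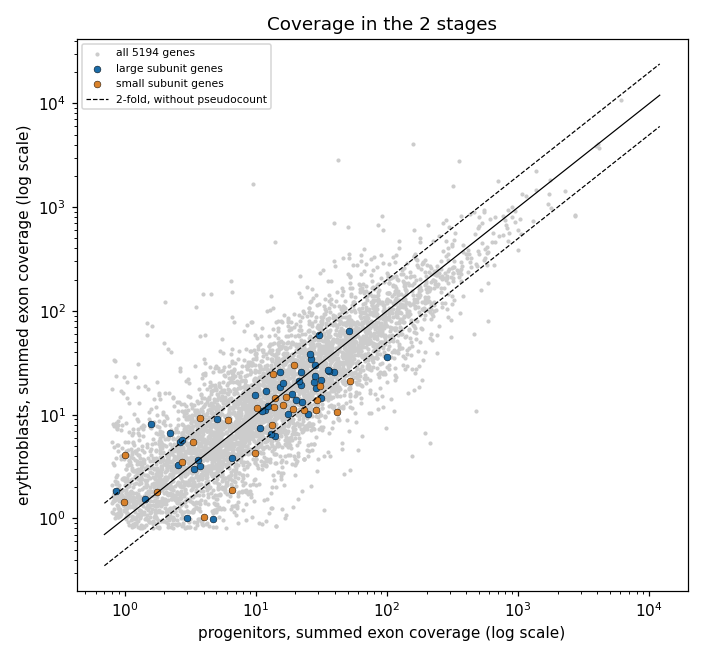
Coverage in progenitors (x) and erythroblasts (y), both on log axes, of all 5194 genes and of the 72 mitochondrial ribosomal protein genes. The members lie along the diagonal within the cloud of all genes, and the 4 that rose have between 1.01 and 3.76 in progenitors.

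EKLF peaks were deposited as 1 list per stage, with 7358 peaks in progenitors and 19353 in erythroblasts. Peaks were assigned to a gene when they fell inside the stretch of its listed exon starts or no more than 5 kb outside it. In erythroblasts 41 of the 72 genes had a peak, or 56.9% (Wilson 95% interval 45.4 to 67.7), against 46.5% of all genes. In progenitors 32 had one, or 44.4% (33.5 to 55.9), against 30.9%. Peaks in both lists were found at 25 members, or 34.7% (24.8 to 46.2), against 27.1%. Erythroblast peaks alone were found at 16, or 22.2% (14.2 to 33.1), against 19.4%, and progenitor peaks alone at 7, or 9.72% (4.79 to 18.7), against 3.79%. Intervals cover counting error over genes only. No peak in either list was found at 24 members, or 33.3% (23.5 to 44.8), against 49.7% of all genes. Among the higher-ranked peaks by -log10 p, 9676 in erythroblasts and 3679 in progenitors, the members were near all genes in erythroblasts, with 27.8% against 29.4%, and above them in progenitors, with 23.6% against 18.5%. The higher shares of members did not hold in every setting. With the erythroblast list cut to the length of the progenitor list, 22.2% of members and 24.4% of all genes had an erythroblast peak. With a window of 50 kb the shares were 84.7% and 88.1% in erythroblasts and 66.7% and 70.1% in progenitors. At 5 kb, higher shares than over all genes were not particular to the members. Of nuclear respiratory chain genes 65.8% had an erythroblast peak and 46.6% a progenitor peak. Of genes for ribosomal proteins of the cytosol it was 85.7% and 51%. The 5 smaller gene lists described below ran from 16.7% to 75% in erythroblasts and from 9.09% to 50% in progenitors.

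The sequences of 6 promoters are shown. Mrps18b, Mrpl20 and Mrpl40 had the highest enrichments at members with a promoter entry, Mrps11 shared a peak with Mrpl46, Mrps7 fell and had peaks in both lists, and Mrpl53 had the largest rise and no peak. Each is the 250 bases before the annotated start in RefSeq, build GRCm38.p6, read 5′ to 3′ on the gene's strand. Capitals mark matches to CCNCNCCC, a form of the CACCC-like element that EKLF is known to bind, on either strand. The peaks are in mm9 coordinates, so whether these bases lie under a peak was not tested.
Mrps18b, chr17:35916441-35916690, minus strand: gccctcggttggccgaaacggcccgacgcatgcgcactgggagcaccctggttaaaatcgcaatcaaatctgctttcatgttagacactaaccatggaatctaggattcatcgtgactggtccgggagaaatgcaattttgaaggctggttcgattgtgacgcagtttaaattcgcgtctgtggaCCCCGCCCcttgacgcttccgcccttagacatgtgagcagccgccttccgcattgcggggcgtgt
Mrpl20, chr4:155802628-155802877, plus strand: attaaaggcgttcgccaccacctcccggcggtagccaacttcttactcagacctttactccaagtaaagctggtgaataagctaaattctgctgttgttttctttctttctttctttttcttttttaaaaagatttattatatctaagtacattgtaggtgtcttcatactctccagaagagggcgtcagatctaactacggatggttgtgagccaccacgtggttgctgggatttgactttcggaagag
Mrpl40, chr16:18876638-18876887, minus strand: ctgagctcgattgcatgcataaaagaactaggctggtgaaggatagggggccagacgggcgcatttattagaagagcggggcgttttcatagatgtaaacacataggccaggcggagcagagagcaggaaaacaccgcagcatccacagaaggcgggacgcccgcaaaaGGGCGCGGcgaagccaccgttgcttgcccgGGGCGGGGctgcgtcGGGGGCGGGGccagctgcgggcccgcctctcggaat
Mrps7, chr11:115603890-115604139, plus strand: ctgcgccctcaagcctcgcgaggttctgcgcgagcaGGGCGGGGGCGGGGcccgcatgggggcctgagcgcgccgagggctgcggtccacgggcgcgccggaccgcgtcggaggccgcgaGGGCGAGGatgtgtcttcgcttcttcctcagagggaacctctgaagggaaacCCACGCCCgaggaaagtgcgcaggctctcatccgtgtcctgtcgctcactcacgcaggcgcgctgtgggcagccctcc
Mrps11, chr7:78782881-78783130, plus strand: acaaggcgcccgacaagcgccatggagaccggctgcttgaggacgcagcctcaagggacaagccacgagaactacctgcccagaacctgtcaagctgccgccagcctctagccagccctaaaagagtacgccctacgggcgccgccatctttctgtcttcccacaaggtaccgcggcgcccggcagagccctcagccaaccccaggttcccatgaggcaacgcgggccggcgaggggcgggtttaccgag
Mrpl53, chr6:83108858-83109107, plus strand: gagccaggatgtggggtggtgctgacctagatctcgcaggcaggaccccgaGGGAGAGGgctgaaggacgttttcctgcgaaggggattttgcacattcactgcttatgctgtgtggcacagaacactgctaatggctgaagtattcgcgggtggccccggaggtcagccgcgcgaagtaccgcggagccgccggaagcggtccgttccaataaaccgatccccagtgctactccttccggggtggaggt
The promoter of Mrps7 held 5 matches and that of Mrpl40 held 4. Those of Mrps18b and Mrpl53 held 1 each, and those of Mrpl20 and Mrps11 held 0.

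The strongest peak at any member lay near Mrps18b, the gene with the largest fall at a pseudocount of 1. In erythroblasts it spanned chr17:36052848-36054932 (mm9) with an enrichment of 40.9 and rank 135 of its list, its centre at -2.249 kb from the start of the first listed exon, where minus means upstream. An overlapping progenitor peak, chr17:36053002-36055066, had an enrichment of 17.0 and rank 257. Enrichments and ranks are the authors' and are read within a list only. The listed coordinate of an exon was taken as its start on both strands. On the minus strand it may mark the other end of the exon, which would shift distances by up to that exon's length. Ppp1r10, which encodes a regulatory subunit of a protein phosphatase, starts within 1 kb on the other strand. Its coverage was 22.5 in progenitors and 34.6 in erythroblasts, opposite in direction to Mrps18b.

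By enrichment, the next erythroblast peak was that over the first listed exon of Mrpl20, chr4:155176621-155178194, with 35.55 and rank 1072. No progenitor peak overlapped it. A further peak downstream, chr4:155186113-155187601, had 22.3 and overlapped a progenitor peak of 7.65. Mrpl40 had a peak of 23.95 in erythroblasts, chr16:18875705-18878234, overlapping a progenitor peak of 5.84. Its neighbour Hira, which encodes a histone chaperone and starts on the other strand, fell from 39.6 to 11.2 while Mrpl40 had 22.03 and 19.2. Mrpl39 had an erythroblast peak of 21.5 that no progenitor peak overlapped. Mrpl46 and Mrps11 start close together on opposite strands and shared 1 erythroblast peak, chr7:85926904-85928582, of 12.9. Mrpl46 had 9.80 and 15.5, and Mrps11 had 13.501 and 24.7.

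Among the progenitor peaks, that at Mrps28 was the next strongest after Mrps18b, with an enrichment of 15.65 and rank 285. It lay over the first listed exon, where the erythroblast peak had 7.19 and rank 17312. A further erythroblast peak lay 91.0 kb downstream, within the span of this long gene, with 13.7 and rank 492, which by -log10 p made it the next after Mrps18b among erythroblast peaks at members. Coverage of Mrps28 was 19.1 in progenitors and 11.4 in erythroblasts. At Mrpl12 the peaks lay about 7.5 kb downstream of the first listed exon, with 13.6 and rank 483 in progenitors and 7.44 and rank 14996 in erythroblasts.

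In all, 36 progenitor peaks and 46 erythroblast peaks lay at members. Their median enrichment was 7.68 in progenitors, against 7.03 for that list, and 11.9 in erythroblasts, against 9.31. A peak of the other stage overlapped 27 of the 36 and 27 of the 46, from lists that differ in length. The first listed exon was covered at its listed start in 21 members in progenitors and 24 in erythroblasts. Shares over all peaks and all genes are not given here, so these counts describe the members only. First listed exons need not be the first exons of the genes.

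**Figure D4:**
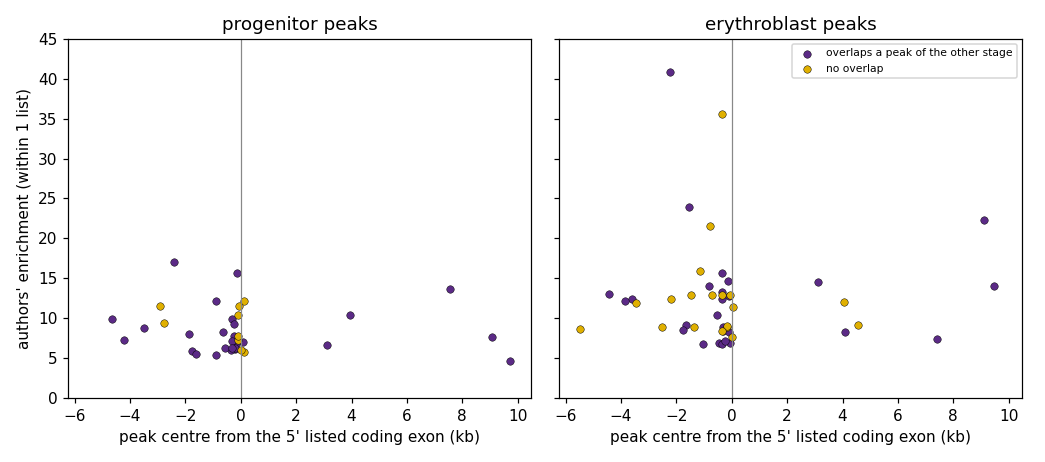
Enrichment of each EKLF peak at a member (y, the authors' value) against the distance of its centre from the listed start of the first listed exon in kb (x). Progenitors and erythroblasts are shown apart, coloured by overlap with a peak of the other stage. Centres lie within 1 kb of that start for 22 of 36 gene and peak pairs in progenitors and 24 of 47 in erythroblasts, and 1 pair, the erythroblast peak 91.0 kb into Mrps28, lies outside the plotted range.

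Peaks and coverage were set side by side. Of the 12 genes that fell, 7 had a progenitor peak and 5 an erythroblast peak, where 30.2% and 43.1% of all 685 genes that fell had one. Of the 4 that rose, none had a progenitor peak and 1, Mrps18c, had an erythroblast peak, where the shares of all 794 genes that rose were 29.8% and 47.1%. Counts this small say little against those shares. The 32 members with a progenitor peak had a median difference of -0.47, and 25 of them were lower in erythroblasts. The 40 without one had a median of 0.14, and 16 were lower. Over all genes the medians with and without a progenitor peak were both 0.03. Median progenitor coverage, which is not per length, was 20.7 with the peak and 8.17 without, and its part in this was not tested. Among members with at least 10 in the higher stage the medians were -0.47 with the peak and -0.12 without, and among those with 2 or more exons -0.47 and 0.18. By class, the medians were -0.52 with peaks in both lists, -0.41 with a progenitor peak alone, 0.14 with an erythroblast peak alone and 0.14 with neither. No test of these differences was made.

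Divergent neighbours were looked up because start sites on opposite strands can share a peak. A protein-coding gene started within 1 kb on the other strand of 23 members, and 18 of these 23 had a peak in at least 1 list. Over all 72 members 24 had no peak in either list, and over all genes 49.7% had none. Of the 17 with a listed neighbour, 9 differed in the same direction as it and 8 in the opposite one, counting Mrpl46 and Mrps11 from both sides. The neighbours that fell were Hira, Twnk beside Mrpl43 and Ptcd2 beside Mrps27, and none rose. Of all genes 13.2% fell and 15.3% rose, and counts this small say little against those shares. Other divergent gene pairs were not looked up. Twnk, which encodes the helicase of mitochondrial DNA, went from 10.1 to 3.24, and Ptcd2, which encodes a mitochondrial RNA-binding protein, from 3.03 to 0.993.

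Promoter letters were counted in the 250 upstream bases of 63 members, since 9 had no matching entry. Matches were taken on both strands and may overlap between motifs. CCNCNCCC occurred in 32, or 50.8%, against 64.4% of the 4280 listed genes and 45.6% of all 27025 promoters. It occurred in 17 of 36 members with an erythroblast peak and 15 of 27 without. The ETS-type motif CCGGAAG occurred in 27.0% of members, 19.3% of listed genes and 7.05% of all promoters. The E-box CACGTG occurred in 7.94%, 9.46% and 6.05%, in the same order. The GATA-type motif AGATAA occurred in 15.9%, 5.19% and 10.3%. A 10-letter NRF1-type motif with 1 free base occurred in 15.9%, 11.6% and 3.86%. A shorter form, GCATGCGC, was added after those values had been seen and gave 12.7%, 5.96% and 2.32%, so the gap between members and listed genes depends on the form. A match is a description of letters and not a site.

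Other genes of mitochondrial translation were taken from lists by function. Of 5 ribosomal proteins named by another rule 4 were listed and none passed 2-fold: Aurkaip1 had 44.998 and 60.9, and Dap3 27.2 and 23.2. Of 13 translation factors 6 were listed and none passed, with a median of -0.21. Tufm, the elongation factor that delivers tRNAs, had 20.9 and 12.7. Of 24 symbols for genes that charge mitochondrial tRNAs, Gars and Kars each also entered under another name, 11 were listed. None of these genes passed, with a median of -0.39. Most encode synthetases, Gatb encodes an amidotransferase subunit, and Kars and Gars also encode the enzymes of the cytosol. Of 27 assembly factors 11 were listed. Rbfa, which helps mature the small subunit, fell from 32.2 to 11.6, and Fastkd2 and Ngrn rose, each on 1 exon. Of 13 genes of mitochondrial transcription and messenger RNA 6 were listed. Polrmt, the mitochondrial RNA polymerase, fell from 7.92 to 2.11 on 1 exon, as did Twnk.

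The respiratory chain, whose mitochondrially encoded subunits this ribosome makes, had 73 nuclear genes listed. Of these 20 rose and 4 fell, with a median of 0.58, and 59 were higher in erythroblasts. Ribosomal proteins of the cytosol had 49 genes listed, of which 8 rose and 0 fell, with a median of 0.08. The members had 4 and 12 of 72 and a median of -0.15. These counts describe the lists, and the differences between them were not tested. Both lists beside the members were taken by gene name. That of the respiratory chain also holds assembly factors, of which Ndufaf3 rose and Ndufaf4 fell. That of the cytosol holds relatives such as Rps27l, which rose.

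**Figure D5:**
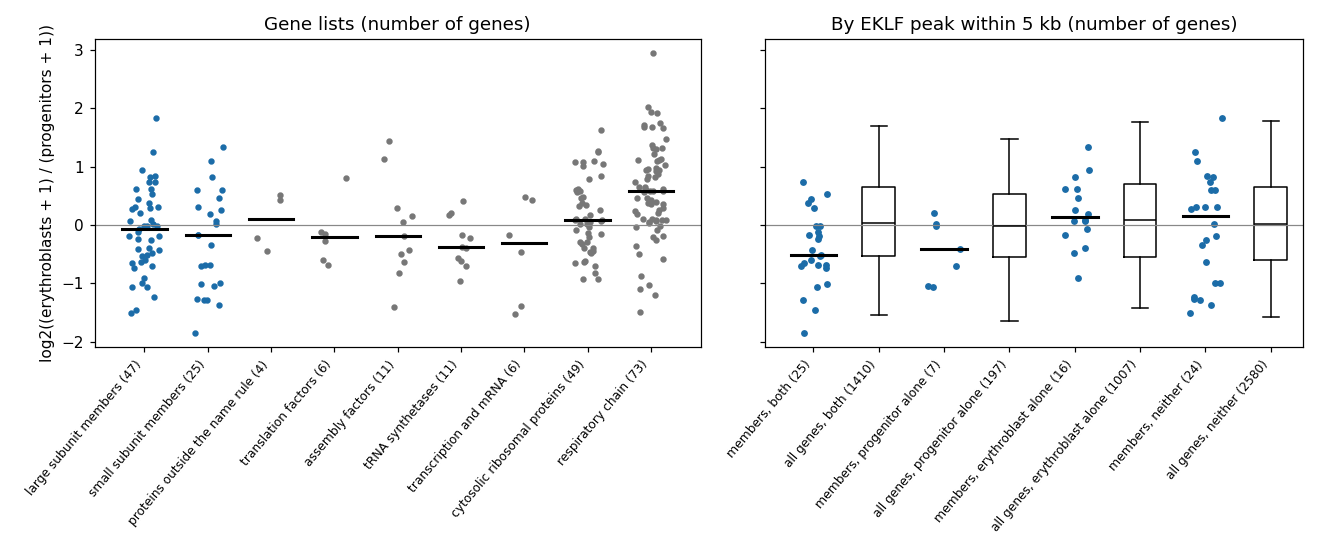
Left, log2 difference in coverage of each gene in the large and small subunits and the lists beside them, with medians. Medians run from -0.39 for the tRNA synthetases to 0.58 for the respiratory chain, with -0.07 for the large and -0.18 for the small subunit. Right, the same difference by peak class, for members (points) and all genes (boxes, whiskers from the 5th to the 95th percentile), where the members with peaks in both lists have a median of -0.52.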

How the data were processed

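EKLF ChIP-seq and RNA-seq libraries were grouped by the stage in the labels. Build mm9 is from the submitters' processing notes, while no label or header names an aligner, a counting tool or a peak caller (each not given in the sources used here). As deposited by the authors, the table holds a coverage signal per exon, 1 column per stage. All its values were whole multiples of 1 step (within 0.01), with no exon length divided out. No source used here says whether the erythroblast column pools both libraries. In the deposited peak lists, column 7 was read as the authors' fold enrichment and column 8 as the authors' -log10 p. Input libraries had no values used here.

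Transcripts were matched to symbols with RefSeq (6772 of 6853), exons were summed over the transcript with most listed exons, a pseudocount of 1 was added, and 2-fold was the rule in place of a model, since there was no column per library. Genes named are those past 2-fold, those nearest to it, the best covered others and those with the strongest peaks; Mrpl15 and the genes named by a place in the ribosome were picked after their values were seen. The members and lists were chosen with earlier results of these data known. The steps were tested on simulated data. Alternatives were pseudocounts, filters, scalings, exon summaries, windows and peak cutoffs. Python 3.11.15, numpy 2.4.6, pandas 2.3.3 and matplotlib 3.10.9 were used.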

Additional observations from a re-analysis of the deposited data

How the results depend on the processing

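The members that rose numbered 7 with a pseudocount of 0.1, 1 with a pseudocount of 5, 8 with columns scaled by the ratio of their steps, 7 with the median of exon ratios, 1 among members with at least 3 listed exons and 2 among those with at least 2, the last added after seeing the data. All genes rose in 18.1%, 9.86%, 20.4%, 19.2%, 14.8% and 15.4% under these settings, in the same order. The members that fell numbered 4 with a pseudocount of 5 and 6 with at least 3 exons, where 7.91% and 12.3% of all genes fell. Step scaling turned the median difference to 0.0415 for all members, 0.1453 for the large and 0.0342 for the small subunit, and Mrpl43, Mrpl44, Mrps22 and Mrps7 no longer fell. The median of exon ratios gave -0.17 for the large and -0.37 for the small subunit. The small subunit median was -0.52 with at least 5 in the higher stage, -0.44 with at least 3 exons and -0.35 with at least 2. The cause was not tested, beyond the fewer genes that filters leave. With no margin around the genes 25 members had an erythroblast peak, 21 a progenitor peak and 14 both (34.7% and 29.2% for the first 2, against 24.9% and 15.8% of all genes). A 50 kb window gave 40 with both, and the members were below all genes in each list (84.7% against 88.1%, 66.7% against 70.1%). The upper part of each list gave 20, 17 and 10, with 10 erythroblast alone. The first 2 are 27.8% and 23.6%, against 29.4% and 18.5% of all genes. For the counts of both and of alone in the window and cutoff settings, shares of all genes are not given, so they describe the members only. With the erythroblast list cut to 7358 peaks 16 members had an erythroblast peak (22.2%, against 24.4% of all genes, so the excess turned round), 14 had both and 2 had it alone, the last pair of counts added after seeing the data. No library could be left out, because the table has no column per library, and no paired analysis was possible because each stage has 1 column.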
